A study of Mus musculus with 6 samples.

Results

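The elastic fibre and microfibril genes are 10 matrix genes chosen by symbol: Eln, the fibrillin genes Fbn1 and Fbn2, the fibulin genes Fbln1, Fbln2 and Fbln5, the microfibril-associated genes Mfap2, Mfap4 and Mfap5, and Lox. A gene counted as measured where a probe set of the array listed it alone, and the one with the highest 6-array mean would have been taken where several did. By this rule 9 of the 10 genes were measured, each by 1 probe set, among 22180 genes in all, and Fbn1 was not analysed here. The arrays, from Affymetrix, held RNA of fibroblasts that were dissociated from dorsal body wall of mouse embryos (strain 129SV, stage E14.5). For all arrays the labels give housing at 20 °C and a digestion of 40 min. All embryos were heterozygous for a reporter allele written Ebf2(GFP)/+, in which green fluorescent protein (GFP) reports expression of the transcription factor gene Ebf2. Cells positive for the surface receptor PDGFRα were sorted into Ebf2(GFP)+ cells (n = 3 arrays) and Ebf2(GFP)- cells (n = 3 arrays), called GFP-positive and GFP-negative here. Both groups carry the same genotype, so the groups differ in the sort and not in an Ebf2 mutation, and the labels do not say how many embryos or litters stand behind an array.

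Elastic fibres give skin, vessels, lung and fascia their recoil. They consist of a core of elastin laid down on a scaffold of fibrillin microfibrils. Fibulins and microfibril-associated glycoproteins bind the scaffold and help to place the elastin, and lysyl oxidase crosslinks it. Microfibrils also occur without elastin and hold growth factors of the TGF beta and BMP families in latent form. In the embryo the scaffold is made largely by mesenchymal cells such as fibroblasts, and smooth muscle cells are a further source.

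The comparison asked whether PDGFRα-positive cells with an active Ebf2 reporter express these genes at other levels than their neighbours without it. The values are log2 expression values as deposited, so a difference of 1 is a 2-fold difference. Each difference is the GFP-positive mean minus the GFP-negative mean, and means are given with their SD over arrays. To pass, a gene needed a limma p under 0.05 after Benjamini-Hochberg adjustment over all genes.

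None of the 9 measured genes passed the test (0 of 9), where 6.49% of all genes did, 2.65% being higher and 3.84% lower in GFP-positive cells. The median change of the 9 genes was 0.04 on the log2 scale, beside 0.02 over all genes, and their median absolute change was 0.07, beside 0.08 over all genes. At an unadjusted limma p under 0.05, 2 of the 9 stood out (Fbln1 and Lox, both lower), where 17.7% of all genes did. In 3 of the 9, Fbln1, Mfap4 and Lox, the arrays of the groups did not overlap, as for 22.0% of all genes. With the replicate number as a block, 1 of 9 passed (Lox), beside 10% of all genes. For 8 of the 9 genes the 95% interval of the difference lay inside a 1.5-fold change either way, and for 7 inside a 1.25-fold change. Mfap5 was the gene outside the first limit, and Mfap5 and Lox were those outside the second, limits that were set after the values were seen. All 9 genes lay above log2 6.78 on every array, the 40th percentile of gene means, which served as a mark of dim genes because no detection calls were used here.

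**Figure D1:**
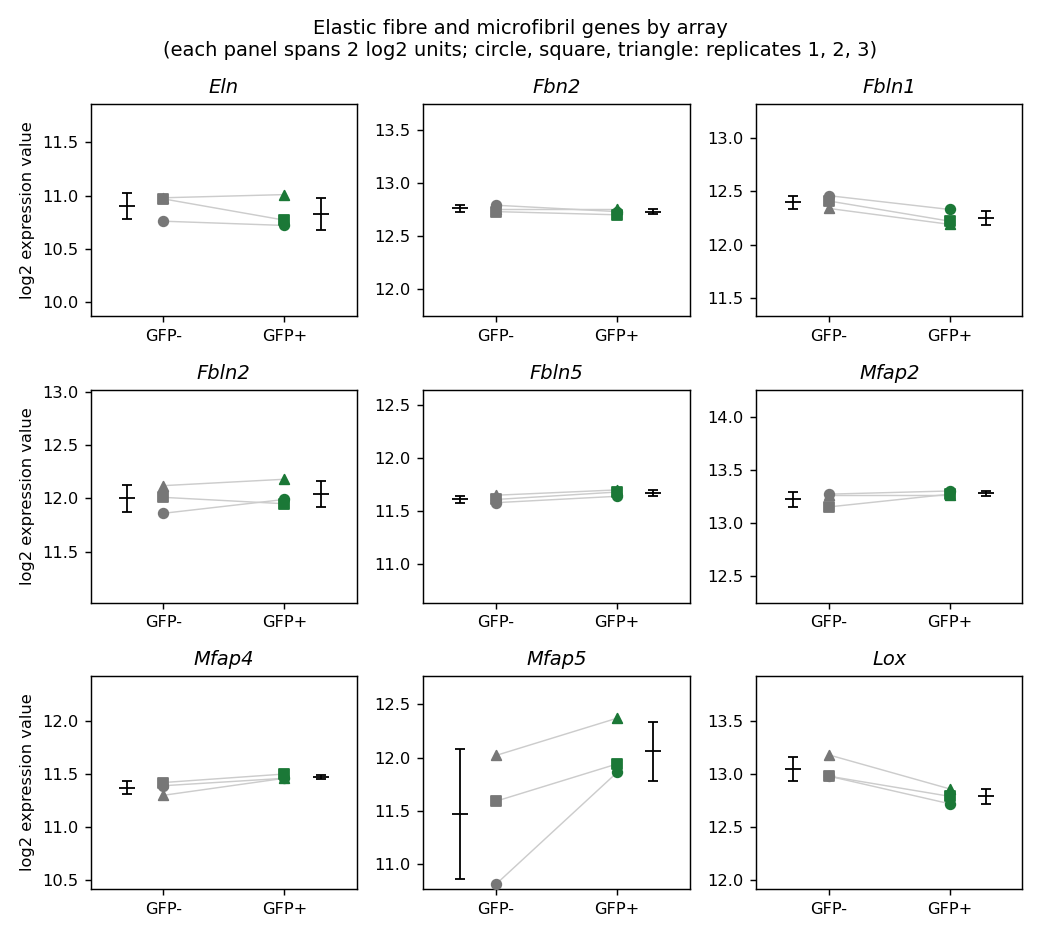
Log2 expression values (y axis) of the 9 measured genes in the GFP-negative (grey) and GFP-positive (green) arrays, with every panel spanning the same 2 log2 units. Symbols mark replicate numbers, grey lines join arrays of the same number, and black bars give mean and SD (n = 3). The points of 8 genes lie within 0.45 log2 units of each other, whereas those of Mfap5 span 1.56.

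The groups' difference in elastin was smaller than the spread within either group. Eln, which encodes the tropoelastin monomer, read 10.76, 10.97 and 10.98 in GFP-negative replicates 1, 2 and 3 and 10.72, 10.77 and 11.01 in GFP-positive replicates 1, 2 and 3. The groups overlapped, and both the lowest and the highest array were GFP-positive. Its means were 10.9 ± 0.123 (SD, n = 3) and 10.83 ± 0.152 (SD, n = 3), a difference of -0.07 ± 0.10 SE (limma adjusted p = 0.79). The 95% interval ran from -0.31 to 0.16, that is from 1.24-fold lower to 1.12-fold higher in GFP-positive cells.

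Fbn2 encodes fibrillin-2, the fibrillin best known from embryonic microfibrils, and it was the steadiest of the genes. It read 12.79, 12.73 and 12.75 in GFP-negative arrays and 12.73, 12.70 and 12.75 in GFP-positive arrays. All 6 values lay within 0.09 log2 units. The difference was -0.03 ± 0.05 SE (limma adjusted p = 0.838, 95% interval -0.15 to 0.09).

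The fibulin genes Fbln1, Fbln2 and Fbln5, which encode elastin- and fibrillin-binding glycoproteins, did not share a direction. The further fibulin genes Fbln7 and Efemp1 are given below. Fbln1, whose product binds fibronectin and the elastin core, read 12.46, 12.41 and 12.34 in GFP-negative arrays and 12.33, 12.22 and 12.19 in GFP-positive arrays. Every GFP-positive array was below every GFP-negative array, although the nearest arrays of the groups read 12.34 and 12.33. The difference was -0.16 ± 0.06 SE, or 1.11-fold, and did not pass (limma adjusted p = 0.255, or 0.132 with the replicate block).

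Fbln2, which is widespread in embryonic mesenchyme, read 11.86, 12.01 and 12.12 in GFP-negative arrays and 11.99, 11.95 and 12.18 in GFP-positive arrays. Both groups covered nearly the same range. The difference was 0.04 ± 0.09 SE (limma adjusted p = 0.866), and it turned to -0.02 without GFP-negative replicate 1 and to -0.03 without GFP-positive replicate 3.

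Fbln5, whose product is required for normal elastic fibres in skin, lung and vessels, read 11.58, 11.61 and 11.65 in GFP-negative arrays and 11.64, 11.68 and 11.70 in GFP-positive arrays. The groups overlapped by 1 array on either side, although each GFP-positive array was above the GFP-negative array of its number (3 of 3 pairs). The difference was 0.06 ± 0.05 SE, or 1.04-fold (limma adjusted p = 0.62).

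Fbln1, Fbln2 and Fbln5 form the family for which RefSeq promoter windows of every measured member were searched. Their windows are shown because the cells were sorted on an Ebf factor while the levels of these genes differed by little. A window holds 250 bases before and 50 after an annotated start (RefSeq, GRCm38.p6). Windows of 5 of the 10 genes were searched (Fbn1, Fbln1, Fbln2, Fbln5 and Mfap2). No window was at hand for Eln, Mfap4 and Mfap5, and Fbn2 and Lox were left out of the search. EBF factors are known to bind an inverted repeat with the core CCCNNGGG, which reads alike on both strands. The 5 genes have 8 windows, as a gene with several annotated starts has several. This core occurred in 3 of the 8 windows, those of both Fbln1 starts, which overlap and share it, and of 1 Fbln5 start, and in 13.7% of all 32851 windows of 300 bases. The letters TATAAA, searched on both strands, occurred in 0 of the 8 windows and in 13.6% of all windows, and the motifs cannot overlap. A match describes these letters and shows no binding, and the percentages over all windows were not matched for the share of G and C. Sequences run 5′ to 3′ in the direction of the gene, and capitals mark the core. The Fbln1 window lies at chr15:85205758-85206057 on the plus strand, with the core at -21 from the start, and the window of the other annotated Fbln1 start covers the same core. That of Fbln2 lies at chr6:91212514-91212813 on the plus strand and holds no core. That of Fbln5 lies at chr12:101819070-101819369 on the minus strand, with the core at -45, and the window of the other Fbln5 start holds none.
Fbln1: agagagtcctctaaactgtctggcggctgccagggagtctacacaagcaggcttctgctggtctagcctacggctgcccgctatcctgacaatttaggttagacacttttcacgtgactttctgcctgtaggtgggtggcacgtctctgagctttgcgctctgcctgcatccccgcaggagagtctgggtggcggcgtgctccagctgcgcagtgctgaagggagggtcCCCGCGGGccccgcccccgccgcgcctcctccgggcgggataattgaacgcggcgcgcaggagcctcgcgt
Fbln2: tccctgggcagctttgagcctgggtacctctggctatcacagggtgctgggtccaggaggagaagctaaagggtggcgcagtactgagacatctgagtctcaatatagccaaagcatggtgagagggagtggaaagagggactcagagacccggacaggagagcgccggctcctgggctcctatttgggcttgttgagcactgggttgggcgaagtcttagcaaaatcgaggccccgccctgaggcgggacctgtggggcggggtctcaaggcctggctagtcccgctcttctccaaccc
Fbln5: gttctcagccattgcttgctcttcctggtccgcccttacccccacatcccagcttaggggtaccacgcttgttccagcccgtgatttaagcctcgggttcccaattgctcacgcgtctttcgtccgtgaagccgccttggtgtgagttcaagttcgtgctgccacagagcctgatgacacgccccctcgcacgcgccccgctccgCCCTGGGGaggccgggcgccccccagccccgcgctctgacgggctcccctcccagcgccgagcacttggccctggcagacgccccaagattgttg

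Of the microfibril-associated genes, Mfap2 and Mfap4 differed by at most 1.08-fold and Mfap5 by more. Mfap2 encodes MAGP-1, a small glycoprotein that binds fibrillins. It read 13.27, 13.15 and 13.26 in GFP-negative arrays and 13.30, 13.27 and 13.26 in GFP-positive arrays. The groups overlapped, and GFP-negative replicate 2 was the lowest array. The difference was 0.05 ± 0.06 SE (limma adjusted p = 0.717). Mfap4, a fibrinogen-domain protein that binds elastin and collagen, read 11.39, 11.42 and 11.30 in GFP-negative arrays and 11.46, 11.50 and 11.46 in GFP-positive arrays. All GFP-positive arrays were above all GFP-negative arrays, and the difference of 0.10 ± 0.05 SE, or 1.08-fold, did not pass (limma adjusted p = 0.397, 95% interval -0.02 to 0.23).

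Mfap5, which encodes the related glycoprotein MAGP-2, varied most among arrays. It read 10.81, 11.59 and 12.02 in GFP-negative replicates 1, 2 and 3 and 11.86, 11.94 and 12.37 in GFP-positive replicates 1, 2 and 3. GFP-negative replicate 1 was far below all other arrays, and GFP-negative replicate 3 was above GFP-positive replicates 1 and 2. The means were 11.47 ± 0.611 (SD, n = 3) and 12.06 ± 0.278 (SD, n = 3), a 1.5-fold difference that did not pass (0.58 ± 0.30 SE, limma adjusted p = 0.398). Its 95% interval ran from -0.14 to 1.31, or from 1.10-fold lower to 2.48-fold higher. Within pairs of the same replicate number the GFP-positive array was higher by 1.04, 0.35 and 0.35 (3 of 3 pairs), and with the replicate block the adjusted p was 0.083. Without GFP-negative replicate 1 the difference was 0.25, and without GFP-negative replicate 3 it was 0.86. The pooled SD of Mfap5 within groups was 0.475, larger than that of 99.2% of all genes, whereas those of Fbn2 and Fbln5 were 0.0277 and 0.03.

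Over the 6 arrays, the genes whose profile was most like that of Mfap5 among 22171 other genes were Tfpi2, Itih5 and Pparg. The root mean square difference from Mfap5, after centring each profile on its own mean, was 0.0619, 0.0784 and 0.0864 log2 units. Tfpi2 encodes a secreted inhibitor of serine proteases, Itih5 a hyaluronan-associated matrix protein, and Pparg the nuclear receptor that directs fat cell differentiation. Pparg read 9.33, 10.30 and 10.58 in GFP-negative arrays and 10.42, 10.66 and 10.89 in GFP-positive arrays. Like Mfap5, it was lowest in GFP-negative replicate 1 and highest in GFP-positive replicate 3, and it did not pass (0.58 ± 0.31 SE, limma adjusted p = 0.417). With 6 arrays and so many genes, some profiles lie close to any given one, and likeness is given as a description.

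**Figure D2:**
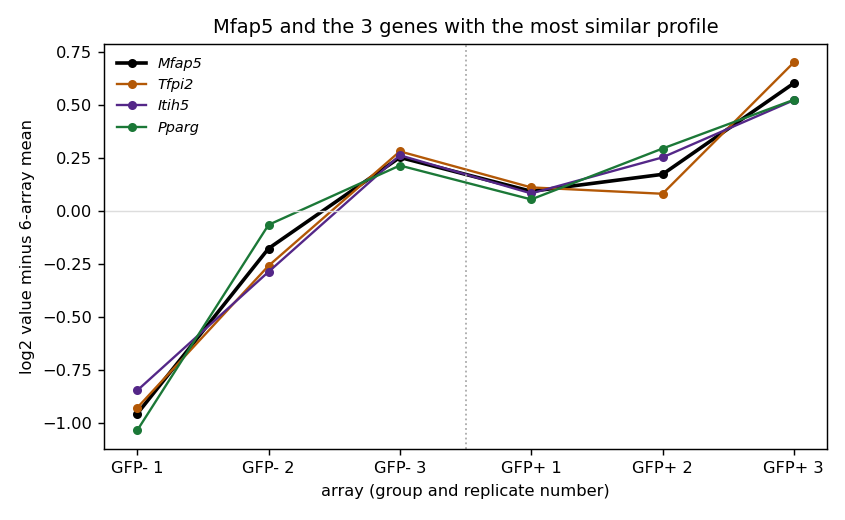
Log2 values of Mfap5 (black) and of Tfpi2, Itih5 and Pparg, each minus its own mean over 6 arrays (y axis), by array (x axis), with a dotted line between GFP-negative and GFP-positive arrays. All 4 genes are lowest in GFP-negative replicate 1 and highest in GFP-positive replicate 3.

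Lox, the lysyl oxidase that crosslinks elastin and collagen, came nearest to the threshold. It read 12.98, 12.98 and 13.18 in GFP-negative arrays and 12.72, 12.79 and 12.86 in GFP-positive arrays. Every GFP-positive array was below every GFP-negative array, and within replicate numbers 1, 2 and 3 the differences were -0.26, -0.19 and -0.31. The means were 13.05 ± 0.113 (SD, n = 3) and 12.79 ± 0.0706 (SD, n = 3), a 1.19-fold difference (-0.25 ± 0.08 SE, limma adjusted p = 0.123). The block by replicate number brought it past the threshold (limma adjusted p = 0.0477), and none of the other alternatives did, with adjusted p-values from 0.0624 to 0.335. The 95% interval without the block, -0.43 to -0.07, ends at a level 1.35-fold lower.

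**Figure D3:**
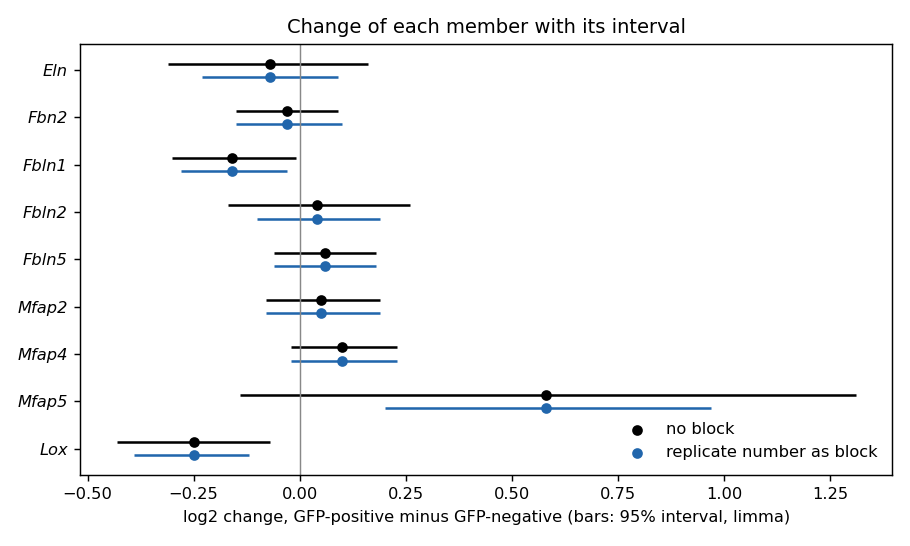
Difference between GFP-positive and GFP-negative means (x axis, log2) for each gene, with limma's 95% intervals, without a block (black) and with the replicate number as a block (blue). The intervals of Fbln1 and Lox lie below 0 in both fits, that of Mfap5 lies above 0 only with the block, and the others include 0.

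The other genes known to build, process or degrade elastic fibres were grouped in 10 lists, of which 67 of 75 genes were measured. Of these, 6 were higher and 11 lower (25.4% called, beside 6.49% of all genes), with a median change of -0.03 and a median absolute change of 0.17. With the replicate block 22 passed, 10 higher and 12 lower, where 10% of all genes did. The lists were written with earlier results of these data known, and the difference between them and the 9 genes above was not tested. Each of the 17 calls was also made with the replicate block. The fits with an array left out had no block. In these, 6 of the 17 calls held whichever array was left out, those of Adamtsl3, Tll2, Hmcn1, Pcolce2, Thsd4 and Vcan. The count of calls was 11, 10 and 12 without GFP-negative replicate 1, 2 or 3. It was 7, 6 and 11 without GFP-positive replicate 1, 2 or 3.

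**Figure D4:**
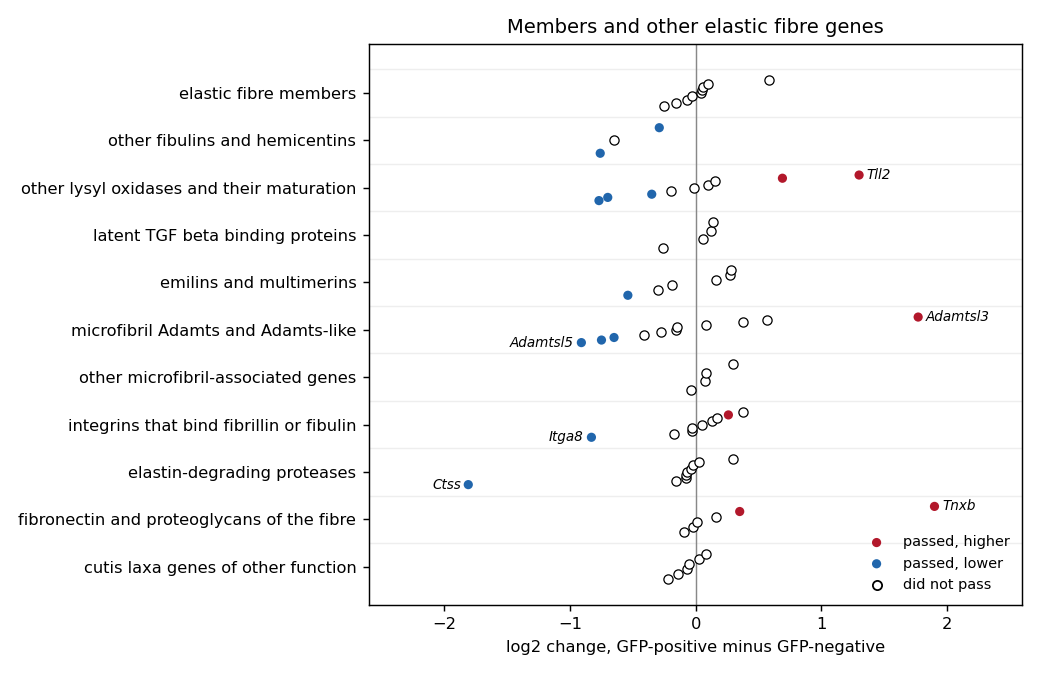
Log2 change (x axis) of the 9 measured genes (top row) and of 67 other elastic fibre genes in 10 lists (rows), 1 point per gene, filled where it passed limma's test at an adjusted p under 0.05. All points of the top row are open, and the filled points with the largest changes are Tnxb, Ctss, Adamtsl3 and Tll2.

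Among the microfibril-associated Adamts and Adamts-like genes, 1 of 11 measured genes rose and 3 fell, and with the replicate block 3 were higher and 3 lower. Adamts6 (0.38 ± 0.14 SE, limma adjusted p = 0.224, or 0.0262 with the block) and Adamtsl2 (0.57 ± 0.16 SE, limma adjusted p = 0.101, or 0.0217 with the block) passed only with it, each higher in 3 of 3 pairs, and are named outside the rule after their values were seen. Adamtsl3, an Adamts-like glycoprotein without protease activity, read 8.24, 8.18 and 8.12 in GFP-negative arrays and 9.93, 9.99 and 9.94 in GFP-positive arrays. The groups were far apart beside their spread, a 3.42-fold rise (1.77 ± 0.06 SE, limma adjusted p = 9.94e-05). Thsd4, which encodes the fibrillin-binding protein ADAMTSL6, fell 1.57-fold from 11.36, 11.43 and 11.42 to 10.67, 10.70 and 10.90 (limma adjusted p = 0.00467). Adamtsl5 (-0.91 ± 0.18 SE, limma adjusted p = 0.03) and the papilin gene Papln (-0.75 ± 0.11 SE, limma adjusted p = 0.0134) were also lower. The call of Papln ended without GFP-positive replicate 2 (adjusted p = 0.052), and that of Adamtsl5 without any 1 array other than GFP-positive replicate 3 (up to 0.118).

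The Adamtsl3 window, shown because this gene had the smallest p of the 10 lists, lies at chr7:82335444-82335743 on the plus strand (RefSeq, GRCm38.p6) and holds 2 copies of the core CCCNNGGG, in capitals. The windows of the other 5 genes that rose in these lists, Tll2 and Tnxb among them, held none (1 of 6 windows with a core for the genes that rose). Of the 11 genes that fell, 10 had windows. A core occurred in 5 of these 12 windows, beside 13.7% of all windows. The 5 windows belong to Adamtsl5, Emid1, Loxl4 and Pcolce2, so a gene with several annotated starts is counted more than once. The difference from that share was not tested, and no match for the share of G and C was made.
Adamtsl3: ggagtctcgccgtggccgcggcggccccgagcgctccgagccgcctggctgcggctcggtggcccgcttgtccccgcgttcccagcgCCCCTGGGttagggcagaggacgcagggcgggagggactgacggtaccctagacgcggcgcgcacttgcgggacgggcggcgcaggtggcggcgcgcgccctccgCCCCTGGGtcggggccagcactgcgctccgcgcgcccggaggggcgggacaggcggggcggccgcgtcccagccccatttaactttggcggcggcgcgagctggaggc

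Of the other lysyl oxidases and the genes that mature them, 2 of 9 rose and 3 fell. Tll2, a tolloid-like protease of the family of Bmp1, which cleaves procollagens and the lysyl oxidase precursor, rose 2.46-fold from 7.05, 6.96 and 6.85 to 8.37, 8.15 and 8.24 (limma adjusted p = 0.000554). The GFP-negative mean of Tll2, 6.95, lay close to the dim mark of 6.78, so its fold change may be inexact. Its relative Tll1 rose 1.61-fold (0.69 ± 0.15 SE, limma adjusted p = 0.0431), a call that ended without any 1 of the 6 arrays (up to 0.164). Pcolce2, an enhancer of procollagen processing, fell 1.71-fold (-0.77 ± 0.09 SE, limma adjusted p = 0.00463). The lysyl oxidase-like genes Loxl4 and Loxl3 fell 1.62-fold (limma adjusted p = 0.0228) and 1.28-fold (limma adjusted p = 0.0174), the second of them named outside the rule after its values were seen. The call of Loxl4 ended without GFP-negative replicate 2 or 3 or GFP-positive replicate 1 or 2 (highest adjusted p 0.101), and the Loxl3 call ended without any 1 GFP-positive replicate (highest adjusted p 0.0749).

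Of 3 other fibulin and hemicentin genes, 2 fell. Hmcn1, which encodes a long fibulin-related matrix protein, fell 1.69-fold from 10.26, 10.20 and 10.48 to 9.69, 9.42 and 9.56 (limma adjusted p = 0.008). Fbln7 fell 1.22-fold (-0.29 ± 0.05 SE, limma adjusted p = 0.0297), and its call ended without any 1 of the 6 arrays (up to 0.11). The remaining gene, Efemp1, which encodes fibulin-3 and is named outside the rule after its values were seen, had a change of -0.65 ± 0.18 SE (limma adjusted p = 0.105, or 0.031 with the replicate block).

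In the list of fibronectin and proteoglycans of the fibre, 2 of 6 genes rose and none fell. The large proteoglycan gene Vcan, whose product binds fibrillin and hyaluronan, rose 1.27-fold from 12.37, 12.33 and 12.34 to 12.68, 12.69 and 12.70 (limma adjusted p = 0.00867). Tnxb, the tenascin-X gene of loose connective tissue, read 8.10, 8.49 and 9.54 in GFP-negative arrays and 10.24, 10.52 and 11.09 in GFP-positive arrays (1.90 ± 0.39 SE, limma adjusted p = 0.0365). Its call held in 1 of 6 fits with an array left out, that without GFP-negative replicate 3 (up to 0.136 in the others). With the replicate block, which those fits lacked, the limma adjusted p was 0.00228. The differences within replicate numbers 1, 2 and 3 were 2.14, 2.03 and 1.54.

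Among 9 integrin subunits known from adhesion to such matrix, Itga5, the fibronectin receptor subunit, rose 1.2-fold (limma adjusted p = 0.0355) and Itga8 fell 1.78-fold (limma adjusted p = 0.0187). The call of Itga5 ended without any 1 of the 6 arrays (up to 0.13), and that of Itga8 without any 1 other than GFP-negative replicate 3 (up to 0.0815). Itgb8, an integrin subunit known from activation of latent TGF beta, passed only with the replicate block (0.38 ± 0.11 SE, limma adjusted p = 0.124, or 0.029 with the block), which made 2 higher and 1 lower, and it is named outside the rule after its values were seen. Of 6 emilin and multimerin genes, Emid1 fell (-0.54 ± 0.10 SE, limma adjusted p = 0.0292, ended without GFP-negative replicate 1 or any 1 GFP-positive replicate, up to 0.111), and with the replicate block 1 rose as well, Emilin3 (0.28 ± 0.15 SE, limma adjusted p = 0.399, or 0.0403 with the block), also named after its values were seen. No gene passed among 4 latent TGF beta binding protein genes, 4 other microfibril-associated genes and 6 further genes of inherited cutis laxa. Examples are Ltbp4 (0.14 ± 0.09 SE, limma adjusted p = 0.525), Tgfbi (-0.04 ± 0.09 SE, limma adjusted p = 0.88) and Aldh18a1 (0.03 ± 0.06 SE, limma adjusted p = 0.845).

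Of 9 elastin-degrading proteases, 1 fell and none rose. It was Ctss, cathepsin S, a lysosomal protease of macrophages and other antigen-presenting cells, at 8.92, 8.18 and 9.46 in GFP-negative arrays and 6.69, 7.22 and 7.24 in GFP-positive arrays (-1.81 ± 0.32 SE, 3.50-fold, limma adjusted p = 0.0233). The call ended without GFP-negative replicate 1 or any 1 GFP-positive replicate (up to 0.0987). All 15 measured macrophage and leukocyte markers were lower in the same arrays, and their mean log2 level was 9.27 to 10.16 in GFP-negative arrays and 7.07 to 8.03 in GFP-positive arrays. Their part in the fall of Ctss was not tested. In bulk samples, fewer cells of a type and less RNA per cell cannot be told apart.

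The sort and the cell types were checked on the same arrays. Ebf2 was 10.2-fold higher in GFP-positive cells (3.35 ± 0.24 SE, limma adjusted p = 0.000916), and Pdgfra, on which both groups were sorted, differed by 0.19 ± 0.06 SE (limma adjusted p = 0.178). Of 9 fibroblast and sort genes, Ebf2 was the 1 that rose and Thy1, a fibroblast surface marker, the 1 that fell (-1.95 ± 0.08 SE, limma adjusted p = 0.000276), and the collagen genes of the list did not pass. Of 12 smooth muscle and mural markers, cells known for elastin synthesis, 4 fell and 1 rose, with a mean level of 9.66 to 9.75 in GFP-negative and 9.51 to 9.58 in GFP-positive arrays. Cartilage markers fell in 15 of 15 genes (10.29 to 10.54 against 8.84 to 9.13) and dermal fibroblast markers in 8 of 11 (9.64 to 9.70 against 8.75 to 8.87). Calls were also made among markers of tendon (1 higher and 1 lower of 7), endothelium (1 and 1 of 8), bone (0 and 2 of 6), mesothelium and meninges (1 and 3 of 8), skeletal muscle (1 and 0 of 9), Schwann cells (0 and 2 of 5) and epithelium (0 and 1 of 5). Beside these counts, 6.49% of all genes were called, or 10% with the replicate block. With the replicate block the counts were 1 higher and 3 lower for smooth muscle and mural markers, 1 and 8 for dermal fibroblasts, 3 and 1 for tendon, 1 and 2 for endothelium and 1 and 1 for epithelium, and those of the other marker lists were as before. Averaged over each list, the macrophage and cartilage markers lay above the dim mark of 6.78 in both groups. The GFP-positive means of Ptprc (5.8), Itgam (6.55), Aif1 (6.61) and Fcgr1 (6.63) were below that mark. Those of the other macrophage and leukocyte markers were above it. Whether the samples held fibroblasts alone was not tested. The part of these cell types in the levels of the elastic fibre genes was not tested either.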

How the data were processed

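RNA of 6 sorted cell samples was biotin-labelled and hybridised to Affymetrix arrays. The table deposited by the authors holds a log2 value for each probe set and array, and RMA and limma are named in the submitters' processing notes. Their versions and any filters are not given here, and the log2 scale was read from the values (3.41 to 14.32, array medians 6.66 to 6.71). Because RMA gives all arrays a like distribution, it would remove a shift common to most genes. The number of arrays limits the precision.

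Of 41345 probe sets, 23521 listed 1 gene, 1814 several and 16010 none, and only the first kind was used, with 1 probe set per gene (22180 genes, no filter on dim ones). Differences were fitted with limma 3.58.1 (lmFit, eBayes) under R 4.3.3, with Benjamini-Hochberg adjustment over all genes. The code of the fit was first tested on simulated arrays without replicate pairs, and this check says nothing about the genes described. Intervals are limma's and are not adjusted for the number of genes. The genes described and all lists were chosen with earlier results of these data known. Named genes are the members, Ebf2 and Pdgfra, up to 4 called genes with the largest change per list, up to 2 of the highest mean where none was called, and the 3 profiles most like that of the member with the largest change.

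The labels do not say whether replicates are separate litters, so p-values measure only a spread between samples that may be technical. Deviations of same-numbered arrays from their group means correlated at 0.408, 0.314 and 0.519, and those of other pairs at -0.384 to -0.024, so the numbers were taken to pair the arrays, on the data alone. Blocked values stand beside the calls and counts they change. Alternatives were the block, median centring, quantile normalization, a filter on dim genes, averaging or separately testing probe sets, eBayes with trend and robust, array weights, a stricter threshold and leaving out each array. Promoter windows came from RefSeq (GRCm38.p6), and plots were drawn with matplotlib 3.10.9.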

Additional observations from a re-analysis of the deposited data

How the results depend on the processing

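No elastic fibre gene passed under 14 of 15 alternatives. With the replicate block 1 did, Lox, at the same difference of -0.25 (limma adjusted p = 0.0477). Of 135 values of single elastic fibre genes over the alternatives, 132 kept their direction and their side of the threshold, and the difference of Fbln2 reversed to -0.02 and -0.03 when GFP-negative replicate 1 or GFP-positive replicate 3 was left out (range over the arrays left out -0.03 to 0.10). Part of this count was fixed in advance. A stricter threshold cannot add a call. As each of these genes had 1 probe set, averaging or separately testing probe sets left its log2 values as they were. Fits with an array left out have fewer arrays with which to detect a change. Over all genes, 1439 passed, or 2228 with the replicate block, 539 at an adjusted p under 0.01 and 629 to 1067 with an array left out. Of the 67 other elastic fibre genes 17 passed (6 higher and 11 lower), or 22 with the replicate block (10 and 12), 6 at an adjusted p under 0.01 and 6 to 12 with an array left out. Of 176 genes of these and the marker lists, 76 passed, or 85 with the replicate block, 41 at an adjusted p under 0.01 and 46 to 62 with an array left out. The median change of all genes was 0.016, or 0.006 after quantile normalization and 0.027 after median centring. With 3 arrays per group, a change of Mfap5 of up to 2.48-fold lies within its interval.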
